A study of Mus musculus with 13 samples.

Results

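Claudins and their partners at the tight junction were followed in single-cell RNA-seq of mouse back skin. The set was 10 of the 27998 genes in the count tables, taken by symbol: Cldn1, Cldn3, Cldn4, Cldn6, Cldn7, Cldn10, Cldn23, Ocln, Tjp1 and F11r. Wild-type (WT, C57BL/6) and Grhl3-/- animals were compared at embryonic days E14.5 and E16.5 and at birth (P0), with 2 libraries per genotype and age, 12 libraries in all. The Grhl3-/- animals lack the transcription factor GRHL3 in the whole body and had spina bifida, and the skin was taken away from that defect. Genotypes of an age were littermates, each library was 1 animal, and each pair held a male and a female. Embryonic libraries came from whole back skin with dermis, and P0 libraries from epidermis separated with dispase, so that age and preparation cannot be told apart between E16.5 and P0. One further WT P0 library was made with an older version of the Chromium chemistry (v1) and enters no test. Its values are set beside some of the results only, and are given for none of the other tight junction genes listed below.

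Tight junctions seal the space between neighbouring cells. Claudins are the transmembrane proteins that form the sealing strands, and the claudins present set which ions and solutes can pass. OCLN (occludin) and F11R (JAM-A) are further transmembrane proteins of the junction, and TJP1 (ZO-1) is the cytoplasmic scaffold that ties the strands to actin. In the epidermis the functional junction lies in the granular layer, and mice without CLDN1 die soon after birth from water loss through the skin.

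The members lie on different chromosomes apart from Cldn3 and Cldn4, which are both on chromosome 5. RefSeq start sites (GRCm38.p6, the build of the deposited counts being mm10) were found for 9 of the 10 members, in 12 windows, and Cldn23 had no entry. The 250 bases before the start are shown for Cldn1 and Cldn4, the members that passed the test between genotypes in P0 granular-like cells, and for both start sites of Cldn10, whose levels moved with cell type as well as genotype. Capitals mark the GC box GGGCGG on either strand, and each sequence runs 5′ to 3′ on the strand of the gene.
Cldn1, chr16:26371840-26372089, minus strand: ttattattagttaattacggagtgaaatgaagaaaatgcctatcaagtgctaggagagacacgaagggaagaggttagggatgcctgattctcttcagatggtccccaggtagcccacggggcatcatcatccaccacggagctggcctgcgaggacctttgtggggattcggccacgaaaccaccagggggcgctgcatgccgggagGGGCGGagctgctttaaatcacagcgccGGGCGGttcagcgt
Cldn4, chr5:134946935-134947184, minus strand: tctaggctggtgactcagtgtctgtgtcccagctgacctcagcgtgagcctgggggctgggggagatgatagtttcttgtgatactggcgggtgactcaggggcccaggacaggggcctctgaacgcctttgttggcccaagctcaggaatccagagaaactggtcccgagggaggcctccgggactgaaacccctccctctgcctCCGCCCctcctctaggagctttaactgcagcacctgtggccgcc
Cldn10, first start, chr14:118787621-118787870, plus strand: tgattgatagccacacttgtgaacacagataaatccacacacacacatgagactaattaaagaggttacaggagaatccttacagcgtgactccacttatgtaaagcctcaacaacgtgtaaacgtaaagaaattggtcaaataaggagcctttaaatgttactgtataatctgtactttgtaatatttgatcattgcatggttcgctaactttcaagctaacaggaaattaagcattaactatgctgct
Cldn10, second start, chr14:118854700-118854949, plus strand: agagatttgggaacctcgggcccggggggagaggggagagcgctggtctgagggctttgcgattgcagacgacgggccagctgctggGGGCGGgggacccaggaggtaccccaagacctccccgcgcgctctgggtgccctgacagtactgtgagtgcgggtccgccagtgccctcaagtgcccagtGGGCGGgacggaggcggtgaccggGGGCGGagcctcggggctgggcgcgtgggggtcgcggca

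The first Cldn10 window had a GC content of 36.0% and no GC box, and the second had 72.4% and 3 GC boxes. The 3′ counts do not separate transcripts from these starts. A GC box was present in 10 of the 12 member windows, against 32.7% of 32851 RefSeq windows of the same length. The letters AACCGGTT, the palindrome bound by Grainyhead-like factors, were in none of the 12 windows and in 0.116% of all windows. The looser AACCNGTT, searched on both strands and holding the palindrome, was in none of the 12 and in 1.79% of all, and TATAAA was in none of the 12 and in 12.4% of all. These are matches of letters in short windows and say nothing of binding.

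The tested libraries held 57270821 to 107038146 UMIs (unique molecular identifiers, each counting 1 captured transcript), and 5267 to 9157 cells per library were kept, at a median of 7448 to 9976 UMIs. Any pair of libraries shared at most 114 cell barcodes, or up to 1.57% of the smaller library. At P0, 1254 of 6765 and 914 of 6589 kept WT cells had over 5% mitochondrial UMIs. In Grhl3-/- libraries it was 598 of 9157 and 356 of 7283 cells, and in the v1 WT library 20 of 5058. Epithelial cells were clustered at each age without any claudin or tight junction gene and named from marker lists, each name carrying -like, with interfollicular epidermis (IFE) divided into basal, spinous and granular. Clusters that reached no name held 37.1% to 41.2% of epithelial cells at E14.5, 11.3% to 16.46% at E16.5 and 19.65% to 24.05% at P0 in the tested libraries. Levels are given as CPM, the field's usual scaling of the UMIs of a gene over all UMIs of that class in that library, and are compared between cells and animals, never between genes.

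Grhl3 transcripts were counted in every library. In epithelial cells they were 36.5 and 35.8 CPM in Grhl3-/- against 48.0 and 60.0 CPM in WT at E14.5, 9.96 and 6.24 against 15.8 and 18.3 CPM at E16.5, and 2.72 and 3.21 against 7.97 and 9.69 CPM at P0. Both Grhl3-/- libraries were below both WT libraries at each age. The labels do not say which exons were removed, and tags from the 3′ end may lie outside them, so that these counts do not by themselves check the genotype labels.

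The members differed in where their levels were highest, and Cldn3, Cldn6 and Cldn7 were high in small populations. A periderm-like cluster at E14.5, the transient outer sheet of the embryonic epidermis, had only 26 cells in all 4 libraries together (1 and 1 WT and 7 and 17 Grhl3-/- cells), and so could not be tested by genotype. The levels there are nearly all of Grhl3-/- cells, which gave 30 and 167 of the Cldn3 UMIs, while the WT cells gave 6 and 0. Over the 4 libraries together Cldn3 was at 642 CPM (203 UMIs, exact 95% Poisson interval 556 to 736, counting error only), Cldn4 at 344 CPM (283 to 416), Cldn6 at 284 CPM (229 to 350) and Cldn7 at 111 CPM (77.0 to 154). Cldn3 was among the 10 genes that set this cluster apart by fold, although no claudin was used to form it. In the 2 WT libraries at E14.5 the other named keratinocyte classes held Cldn3 at 4.06 CPM or less, and an unnamed cluster led by Krt17, Ung and Plet1 held it at 6.02 and 17.9 CPM in WT and 41.6 and 19.4 CPM in Grhl3-/- libraries. Over all epithelial cells at E14.5, Cldn3 was at 19.9 and 24.1 CPM in Grhl3-/- libraries and 3.97 and 4.42 CPM in WT, which did not overlap. That sum over classes was not tested. An unnamed cluster led by haemoglobin genes held 8.03% and 9.29% of these cells in Grhl3-/- and 1.74% and 0.971% in WT libraries, and its part in the sum was not tested.

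At P0 the same claudins were highest in Merkel-like cells, the touch receptors of the epidermis. Cldn3 was at 35.2 and 59.7 CPM in the WT libraries, Cldn6 at 19.2 and 72.1 CPM and Cldn7 at 44.8 and 79.6 CPM. For each gene both libraries were above both WT libraries of every other P0 class. These classes held 42 and 60 cells, and the Grhl3-/- libraries 23 and 8, so that the genotypes were not tested.

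Cldn23 was highest in granular-like cells at E16.5. These 62 cells carried Lor and Lce1 transcripts of the cornified envelope (marker score 8.39 for granular and 3.99 for periderm cells) and held Cldn23 at 116 and 42.6 CPM in the WT libraries, and no other class had a mean above 1.93 CPM. Among the E16.5 WT classes Cldn4 was also highest there, at 197 and 83.7 CPM. At P0 the granular-like cells held Cldn23 at 4.35 and 12.03 CPM, where sebaceous-like cells overlapped them at 3.28 and 7.84 CPM, and Cldn4 was at 25.0 and 30.6 CPM in granular-like and 26.2 and 23.5 CPM in sebaceous-like cells, which did not differ beyond their spread. An unnamed P0 cluster had Klk7, Cst6, Krt77 and Krt79 among its leading genes and its highest marker score for granular cells (3.32, against 2.39 for periderm). With both genotypes of the 4 tested libraries pooled, it had more Cldn4 than any named P0 class, at 81.8 CPM (210 UMIs, interval 71.1 to 93.6). It held 65 and 114 WT and 30 and 17 Grhl3-/- cells, and Cldn4 was not tested by genotype there. These were 1.25% and 2.30% of epithelial cells in WT against 0.399% and 0.300% in Grhl3-/- libraries.

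F11r and Tjp1 were highest outside the epidermis in the embryo. Endothelial-like cells, which line the vessels, held F11r at 108 and 110 CPM at E14.5 and 245 and 255 CPM at E16.5, above every other class in both libraries. Tjp1 was at 98.4 and 72.5 CPM and then at 111 and 94.9 CPM in the same cells. In the P0 preparation F11r was high in all keratinocyte classes, in order spinous-like (mean 129 CPM), granular-like (115), hair follicle-like (111), sebaceous-like (99.1) and basal-like (93.7), of which the last pair overlapped between libraries, and in macrophage or Langerhans-like cells it was at 86.5 and 86.8 CPM.

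Cldn10 was higher in the later embryonic dermis, which was not tested by age. In fibroblast-like cells it went from 2.29 and 1.07 CPM at E14.5 to 88.1 and 93.8 CPM at E16.5, and in the unnamed mesenchymal cells from 14.4 and 12.3 CPM to 147 and 187 CPM. The groups did not overlap, and the Grhl3-/- libraries lay at 3.08 and 2.68 CPM and then at 87.8 and 73.3 CPM in fibroblast-like cells. Dermis was not part of the P0 preparation. There Cldn10 was highest in melanocyte-like cells, at 81.6 and 113 CPM in WT, followed by hair follicle-like cells at 30.8 and 27.4 CPM.

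**Figure D1:**
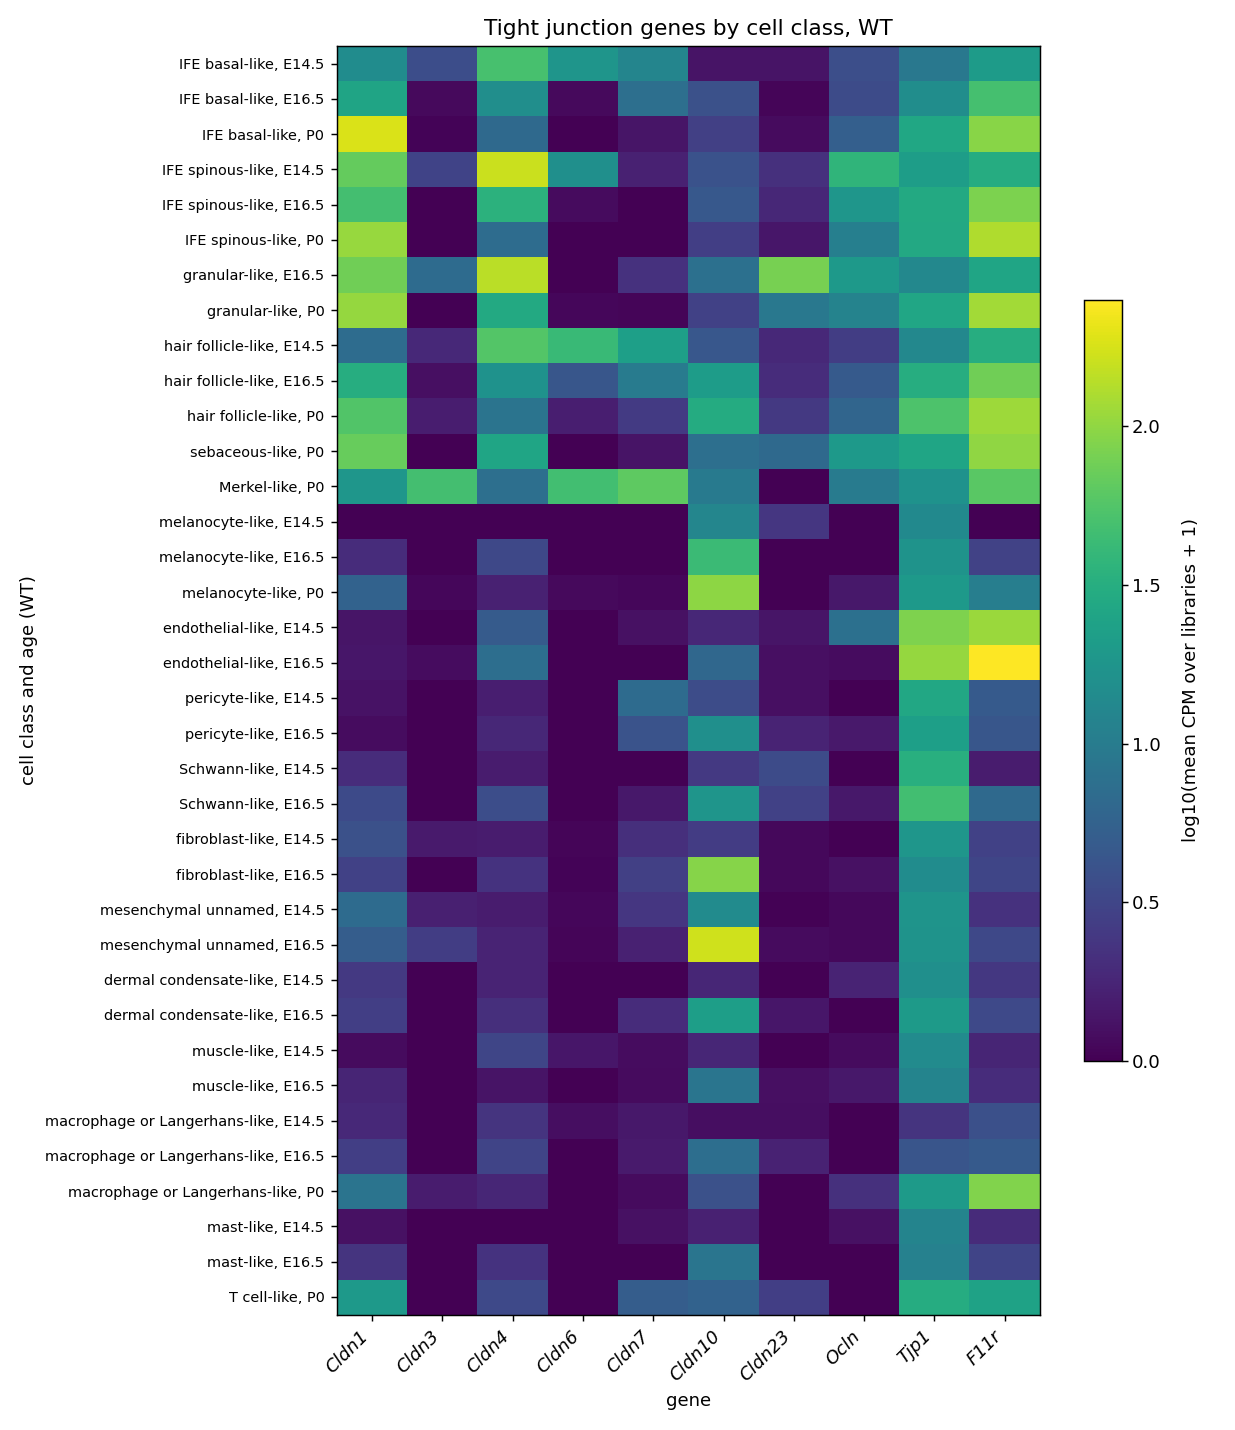
Level of each gene in each WT cell class and age, as log10 of the mean CPM over libraries plus 1, from dark (none) to yellow (highest). Cldn3, Cldn6 and Cldn7 are bright together in Merkel-like cells at P0, Cldn23 in granular-like cells at E16.5, Cldn10 in dermal classes at E16.5, and F11r and Tjp1 in endothelial-like cells.

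With age, WT basal-like cells gained Cldn1 and F11r and lost Cldn4, Cldn6 and Cldn7. Cldn1, the main sealing claudin of the epidermis, was at 13.8 and 13.5 CPM at E14.5, 25.1 and 23.5 CPM at E16.5 and 182 and 185 CPM at P0. The 3 ages did not overlap. The log2 change was 0.94 ± 0.22 (SE, adjusted p = 0.00633) between the embryonic ages and 2.93 ± 0.15 (adjusted p = 5.46e-11) from E16.5 to P0, by edgeR's quasi-likelihood test with Benjamini-Hochberg adjustment over all genes, as for every test here. The first of these calls was lost without the second E14.5 WT library (adjusted p = 0.125). F11r rose over the same steps, from 16.55 and 22.5 CPM through 48.7 and 48.0 CPM to 90.1 and 97.2 CPM, by 1.38 ± 0.18 and 0.97 ± 0.13 on the log2 scale.

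Cldn4 fell in basal-like cells as Cldn1 rose, from 48.3 and 50.7 CPM at E14.5 to 14.7 and 13.97 CPM at E16.5 and 5.75 and 5.51 CPM at P0. It decreased by 1.69 ± 0.17 and then by 1.33 ± 0.18 on the log2 scale (adjusted p = 1.04e-06 and 5.36e-06). Cldn6, an embryonic claudin, had 68 UMIs at E14.5 and 2 at E16.5, a ratio of 109 in UMIs over all UMIs (exact 95% interval 29.1 to 920, counting error only), and 0 at P0. Cldn7 was at 5.45 and 7.56 CPM at E16.5 and 0.599 and 0.120 CPM at P0, a change of -4.10 ± 0.49.

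Of 9 members tested in basal-like cells, 6 passed between E14.5 and E16.5 (3 rose and 3 fell), against 16.48% of all genes tested, and 6 from E16.5 to P0 (4 rose and 2 fell), against 63.4%. The share from E16.5 to P0 was near that of all genes. The rise of Ocln in the second step, 0.82 ± 0.35 (adjusted p = 0.0484), was lost under 12 of 13 alternatives, leaving out either E16.5 library (adjusted p = 0.0692 and 0.298) or the second P0 library (0.213) among them. Without the second E14.5 library 3 members passed in the first step, with Cldn3 (0.224) and Cldn10 (0.332) lost beside Cldn1, and both of these were also lost without the first E16.5 library (0.0952 and 0.0859). The median member changed by 0.05 and -0.63, against 0.02 and 0.07 over all genes.

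Spinous-like cells lost Cldn4 as well. It was at 160 and 161 CPM at E14.5, 34.1 and 34.1 CPM at E16.5 and 5.52 and 6.69 CPM at P0, with changes of -2.003 ± 0.22 and -2.47 ± 0.26. Ocln, most abundant in this class at E14.5 with 37.6 and 35.2 CPM, was at 16.1 and 18.3 CPM at E16.5 and 8.63 and 10.97 CPM at P0. Its change in the second step was -0.82 ± 0.25 (adjusted p = 0.0126). This call was lost under 3 of 12 alternatives, among them DESeq2 (adjusted p = 0.0753) and leaving out the second E16.5 WT library (-0.73). F11r rose from 18.8 and 40.6 CPM to 82.9 and 85.1 CPM and then 130 and 127 CPM. Its second step was lost without integration of the libraries (0.601, edgeR adjusted p = 0.0687). Cldn1 was at 65.75 and 67.7 CPM at E14.5, 49.1 and 44.7 CPM at E16.5 and 91.5 and 119 CPM at P0. Its fall in the first step did not pass, and its rise in the second passed and held under all 12 alternatives. Cldn6, which passed in the first step, had 18 UMIs at E14.5 and 1 at E16.5. Of 7 members tested, 3 passed in the first step, against 12.6% of all genes, and 4 in the second, against 46.0%. The median member changed by -0.83 and 0.00, against 0.055 and 0.058 over all genes. The class differed in make-up by age. At E14.5 it was cluster 0 (Krt14 at 447 and Krt10 at 10542 CPM). At E16.5 it joined cluster 4 (5362 and 30174 CPM) and cluster 8 (408 and 51145 CPM), and at P0 it was cluster 10 (4675 and 14242 CPM). The part of this make-up in the changes was not tested.

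In hair follicle-like cells 5 of 8 members passed between E14.5 and E16.5, against 7.55% of all genes, and 7 of 8 from E16.5 to P0, against 51.7%. Cldn1 rose from 3.40 and 8.72 CPM through 31.0 and 29.6 CPM to 55.4 and 54.3 CPM, and Cldn10 from 3.40 and 3.49 CPM through 22.4 and 17.9 CPM to 30.8 and 27.4 CPM. The E14.5 level of Cldn10 rested on 3 UMIs, a ratio of 5.84 to E16.5 in UMIs over all UMIs (exact 95% interval 1.96 to 28.6, counting error only). Over all cells of these WT libraries Cldn10 went from 7.50 and 5.75 CPM at E14.5 to 77.7 and 77.5 CPM at E16.5. At E16.5 dermal condensate-like (19.1 to 23.5 CPM) and Schwann-like cells (16.6 to 16.9 CPM) were near the hair follicle-like level. The part of RNA carried over from dermal cells in the hair follicle-like and basal-like values was not tested. Cldn6 fell in hair follicle-like cells, from 34.0 and 48.8 CPM to 4.18 and 2.60 CPM and to 0.430 and 0.717 CPM. In the second step Cldn7 fell from between 8.05 and 9.83 CPM to between 1.13 and 2.02 CPM. F11r rose from between 75.0 and 75.7 CPM to between 109 and 113 CPM, and both passed. The WT E14.5 class had 29 and 56 cells, and without the second of these libraries 2 members passed in the first step, with Cldn1 (adjusted p = 0.0592), Cldn6 (0.0611) and Cldn10 (0.39) lost. Cldn10 was also lost there without the first E14.5 library (0.14) or the first E16.5 library (0.10), and F11r without the first E14.5 library (0.0997). The rise of Cldn10 from E16.5 to P0 (0.57 ± 0.21) was lost without the second E16.5 (0.256) or the first P0 library (0.0925), that of Tjp1 without the second E16.5 library (0.0921), and the fall of Cldn6 without the first E16.5 library (0.0519). At a clustering resolution of 0.5 the changes of Cldn4 and Cldn10 in this step turned, to 0.138 and -0.079, and the rise of Cldn1 in the first step was lost (1.25, adjusted p = 0.14). One E16.5 hair follicle-like cluster, 13, held 57 and 51 WT and 25 and 17 Grhl3-/- cells and had the myeloid genes S100a8, S100a9, Retnlg and Lyz2 among its leading genes beside the hair follicle genes Krt79 and Krt17. With it left out, the rise of Cldn1 in the first step (1.56, adjusted p = 0.0574) and the second-step changes of Cldn4 (-0.44, adjusted p = 0.169) and Cldn10 (0.41, adjusted p = 0.104) did not pass. The median member changed by 1.10 and 0.51 in these steps, against 0.055 and 0.036 over all genes. This class also differed in make-up by age, with 1 cluster at E14.5, 5 clusters at E16.5 and 12 at P0. The E14.5 cluster was led by Dkk4, Ltb and Dusp6, while the P0 clusters included those led by Krt71, by Krt79 and by Krt35. What this make-up added to the changes with age was not tested.

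The v1 library, P0 epidermis of WT, did not match the other P0 WT libraries. In its basal-like cells Cldn1 was at 50.2 CPM, above E16.5 and below both other P0 libraries, F11r at 68.9 CPM, also between them, and Cldn4 at 25.8 CPM, above both E16.5 libraries. In its spinous-like cells Cldn4 was at 36.3 CPM, near the E16.5 level, and in its hair follicle-like cells at 20.4 CPM, above E16.5, while Cldn10 there was at 8.29 CPM, below E16.5. Cldn6 and Cldn7 had 0 and 18 UMIs in its basal-like cells. Chemistry and animal cannot be told apart in this library.

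**Figure D2:**
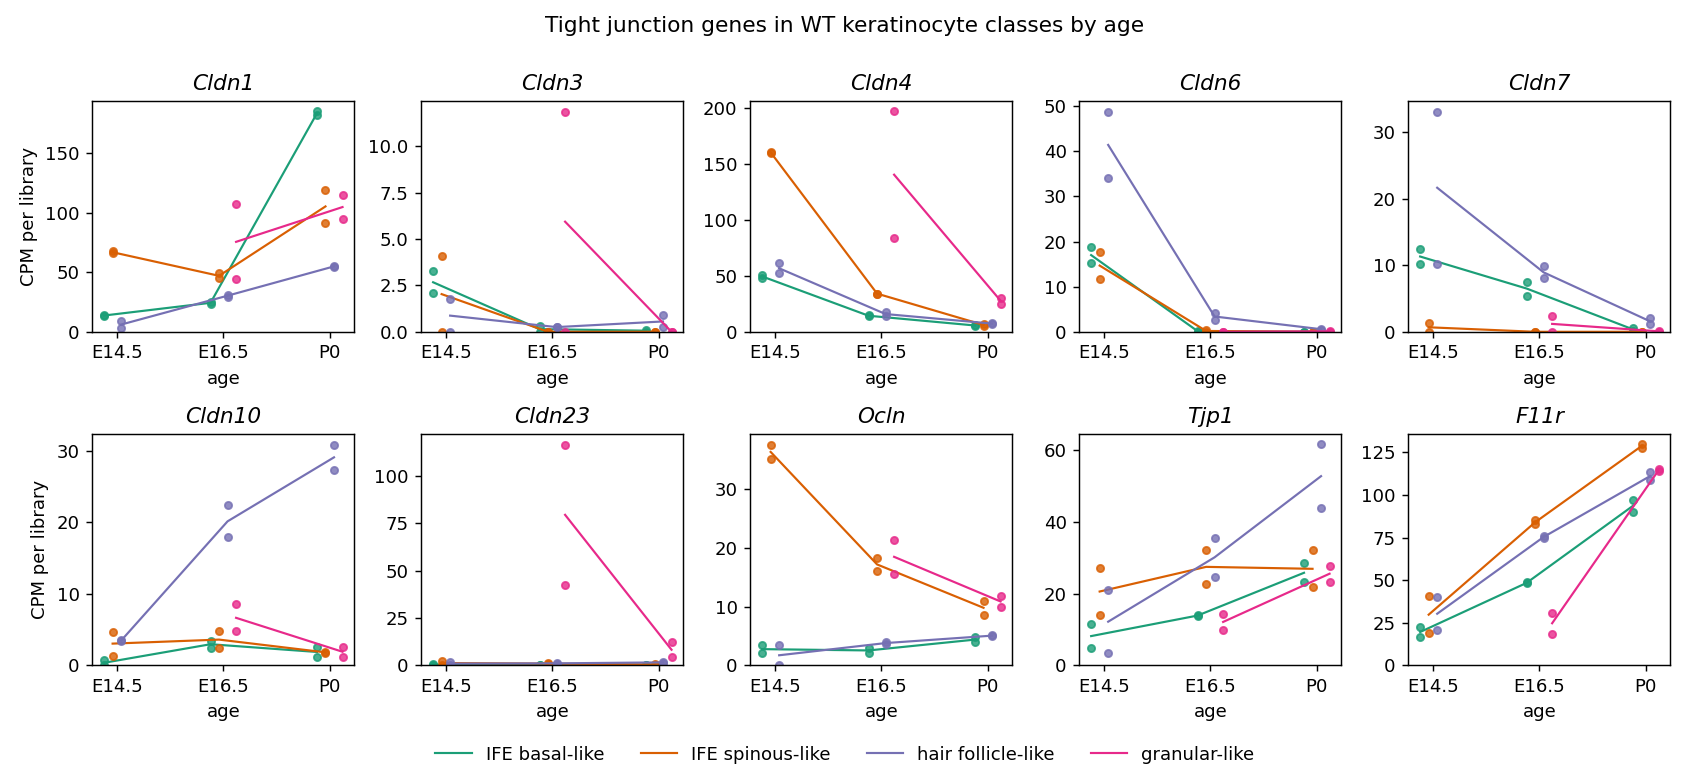
CPM of each gene in WT libraries by age, 1 panel per gene. Points are libraries and lines join the class means. In basal-like cells Cldn1 climbs to 182 and 185 CPM at P0, while Cldn4 is lower at P0 than at E16.5 in all 4 classes drawn and Cldn6 is at 0.717 CPM or less in each of them at P0. The v1 library is not drawn.

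Before birth few members passed the test between genotypes in the named classes. At E14.5 none of 9 passed in basal-like cells (against 0.00836% of all genes) and none of 8 in hair follicle-like cells (against 0.0% of all genes, with 605 at an unadjusted p under 0.05), with 1 member, Cldn7, at an unadjusted p under 0.05 in each. DESeq2 also called 0 members in both classes, and 2 of all genes in hair follicle-like cells. At E16.5 none passed in basal-like (against 0.585%), spinous-like (against 1.64%) or hair follicle-like cells (against 0.257%), with 3, 3 and 1 members at an unadjusted p under 0.05 by edgeR and 0 called by DESeq2. Without the first Grhl3-/- library 1 member passed in spinous-like cells. The nearest were in basal-like cells, where Cldn4 was at 27.5 and 22.1 CPM in Grhl3-/- and 14.7 and 13.97 CPM in WT (adjusted p = 0.0847) and Cldn7 at 19.7 and 14.1 against 5.45 and 7.56 CPM (adjusted p = 0.0962).

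One member passed, Cldn1 in spinous-like cells at E14.5, where 1.47% of all genes did. It was at 34.4 and 29.0 CPM in Grhl3-/- and 65.7 and 67.7 CPM in WT. The groups did not overlap, and the log2 change was -1.06 ± 0.22 (adjusted p = 0.0194). Leaving out any 1 of the 4 E14.5 libraries kept the change between -1.13 and -0.92 but took the adjusted p to between 0.0617 and 0.311. At E16.5 Cldn1 was at 25.1 and 37.7 CPM in Grhl3-/- and 49.1 and 44.7 CPM in WT in the same class (change -0.72 ± 0.21, adjusted p = 0.0979). Granular-like cells numbered 24 and 34 in WT and 3 and 1 in Grhl3-/- at E16.5, and no member was tested there.

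At P0 Cldn1 was lower in Grhl3-/- cells of all 4 classes tested. In basal-like cells it was at 77.2 and 67.5 CPM against 182 and 185 CPM in WT, a 2.52-fold difference (log2 change -1.34 ± 0.13, adjusted p = 1.17e-06). In spinous-like cells it was at 51.6 and 54.8 CPM against 91.5 and 119 CPM (-1.09 ± 0.17, adjusted p = 0.000199). For hair follicle-like cells the values were 28.5 and 22.7 CPM against 55.4 and 54.3 CPM (-1.04 ± 0.13, adjusted p = 2.42e-05). No library of one genotype reached the other in any of these classes, and these 3 calls held under every alternative that gave a value (13, 12 and 14 alternatives). The v1 WT library, left out of the test, had Cldn1 at 50.2 CPM in basal-like, 43.4 CPM in spinous-like and 26.5 CPM in hair follicle-like cells, which is below or within the Grhl3-/- values of these classes, and at 49.6 CPM in granular-like cells.

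The difference was also seen in the share of cells with a Cldn1 transcript. With each cell thinned to 3000 UMIs, to set cells of unequal depth on a par, Cldn1 was found in 40.4% of WT and 19.2% of Grhl3-/- basal-like cells at P0 (78.9% and 45.95% without thinning), in 27.4% and 5.94% of granular-like cells and in 14.4% and 6.94% of hair follicle-like cells. In macrophage or Langerhans-like cells Cldn1 was found in 2.41% and 0.417% at a median of 5546 to 7709 UMIs per cell. Cells of the basal-like class had a median of 12554.5 and 13589 UMIs in WT and 7197.5 and 7012 in Grhl3-/- libraries.

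Basal-like cells fell into 3 clusters, and the largest share of WT cells was in cluster 14 (49.3% and 47.1%) while most Grhl3-/- cells were in cluster 0 (64.5% and 67.4%). Cldn1 was lower in Grhl3-/- libraries within each of them. In cluster 0 it was at 71.9 and 72.7 CPM against 159 and 164 CPM in WT, in cluster 14 at 82.7 and 63.8 CPM against 187 and 192 CPM, and in cluster 21, which carried cell division genes, at 68.3 and 60.1 CPM against 199 and 125 CPM. Among hair follicle-like cells both Grhl3-/- libraries were below both WT libraries for Cldn1 in 10 of 12 clusters. The clusters of a class share the same libraries, so that such tallies, here and below, are not separate tests.

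In granular-like cells Cldn1 was at 38.2 and 13.9 CPM in Grhl3-/- and 94.3 and 115 CPM in WT (-2.13 ± 0.44, adjusted p = 0.0196), and Cldn4 had 0 and 3 UMIs (0 and 2.32 CPM) against 25.0 and 30.6 CPM. The Cldn4 counts differed by a ratio of 17.7 (exact 95% interval 5.99 to 86.0, counting error only; edgeR adjusted p = 0.0104). Cldn23 had 0 and 2 UMIs (0 and 1.55 CPM) against 4.35 and 12.03 CPM and did not pass (adjusted p = 0.104). In all, 2 of 6 members tested passed, against 6.31% of all genes, and the median member changed by -1.80, against -0.09 over all genes.

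The second Grhl3-/- library stood apart in this class. F11r, which joins claudins at the junction, was at 78.2 CPM in the first and 14.7 CPM in the second, against 114 and 115 CPM in WT (adjusted p = 0.0945), and Tjp1 at 36.5 and 16.3 CPM against 23.3 and 27.8 CPM. The class held 47 and 155 Grhl3-/- cells at a median of 11100 and 7214 UMIs, against 301 and 352 WT cells at 14578 and 18173. Without the second Grhl3-/- library no member passed (Cldn1 -1.62, adjusted p = 0.136; Cldn4, then with 0 UMIs in Grhl3-/-, adjusted p = 0.0622), and without the second WT library Cldn1 was lost too (adjusted p = 0.121). The part of depth in these values was not tested. The study described aberrant cells (IFE.A2) nearly exclusive to Grhl3-/- epidermis, closer to a later differentiated stage and with stress markers. It found more of them in its second Grhl3-/- replicate than in its first. Whether the granular-like class held such cells was not tested.

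**Figure D3:**
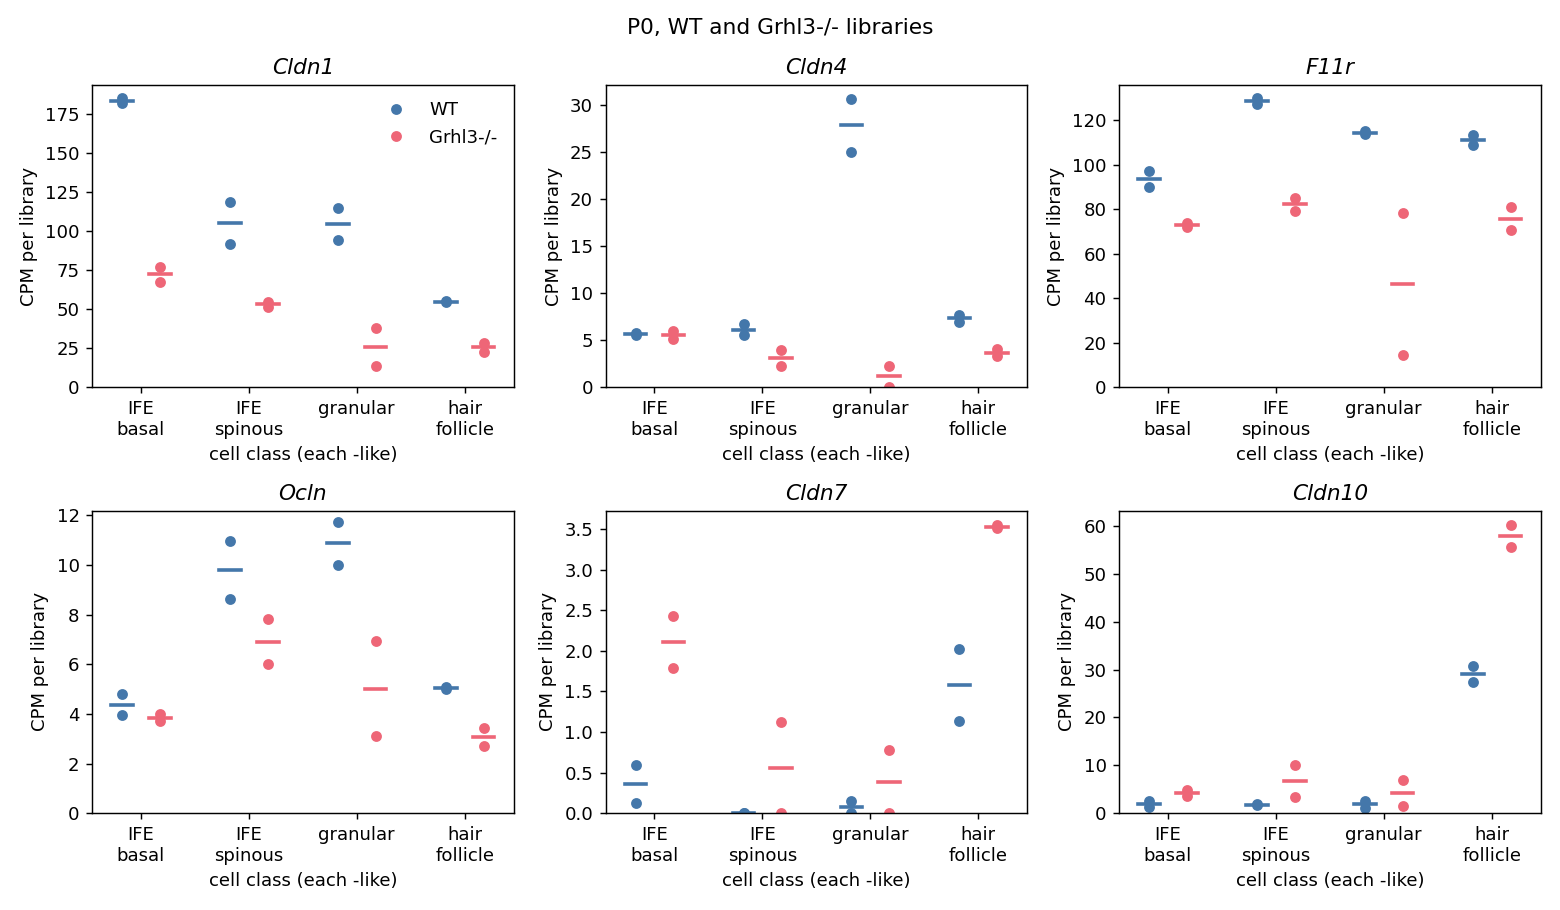
CPM per library at P0 for 6 genes, WT in blue and Grhl3-/- in red, with a bar at each mean. The Cldn1 and F11r points of Grhl3-/- libraries lie below the WT points in every class, the Cldn4 points overlap in basal-like cells, and Cldn10 is higher in Grhl3-/- hair follicle-like cells.

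F11r passed the test at P0 in the other 3 classes, lower in Grhl3-/-. It was at 85.3 and 79.4 CPM against 130 and 127 CPM in spinous-like cells (-0.73 ± 0.17, adjusted p = 0.004), where the v1 WT library had 80.1 CPM, and at 80.9 and 70.6 CPM against 109 and 113 CPM in hair follicle-like cells (-0.49 ± 0.13, adjusted p = 0.00868, and 0.138 without the second Grhl3-/- library), where the v1 WT library had 101 CPM. In basal-like cells F11r was at 72.1 and 74.1 CPM against 90.1 and 97.2 CPM (-0.37 ± 0.12, adjusted p = 0.025), where the v1 WT library had 68.9 CPM, and this call was lost without the second WT library (adjusted p = 0.153) or either Grhl3-/- library (0.0649 and 0.094).

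Other members rose. Cldn7, at 0.599 and 0.120 CPM in WT basal-like cells, was at 2.43 and 1.79 CPM in Grhl3-/- (49 UMIs against 6; log2 change 2.57 ± 0.55, adjusted p = 0.00127), and in hair follicle-like cells at 3.55 and 3.51 CPM against 1.13 and 2.02 CPM (1.201 ± 0.30, adjusted p = 0.0046, and 0.0669 without the first WT library). Within hair follicle-like clusters, both Grhl3-/- libraries were above both WT libraries in 7 of 12, and in cluster 8 Cldn7 was at 2.55 and 1.43 against 0 and 13.65 CPM, the last from 24 UMIs. Some of the 7 rested on few UMIs, as cluster 2 (6 and 1 against 1 and 0) and cluster 17 (6 and 2 against 0 and 0). Cldn6 rose in hair follicle-like cells from 0.430 and 0.717 to 1.36 and 1.69 CPM (1.43 ± 0.44, adjusted p = 0.0182), a call lost without the first WT (adjusted p = 0.133) or the second Grhl3-/- library (0.103). The Cldn7 call in basal-like cells held under all 13 alternatives. Within clusters, Cldn7 was at 4.17 and 3.40 CPM in Grhl3-/- against 0.570 and 0 CPM in WT in cluster 0, which held most of the Grhl3-/- cells, overlapped in cluster 14 (1.40 and 0.495 against 0.618 and 0.154 CPM), and had 1 UMI in all in cluster 21. The v1 WT library had more Cldn7 UMIs in its 1156 basal-like cells, as given above, than the 6 of the other P0 WT libraries in that class. Over all epithelial cells it had Cldn7 at 1.68 CPM. There the other P0 WT libraries had 0.706 and 1.075 CPM, and the Grhl3-/- libraries 2.90 and 2.92 CPM.

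Cldn10 was at 55.5 and 60.2 CPM in Grhl3-/- hair follicle-like cells against 30.8 and 27.4 CPM in WT (1.05 ± 0.17, adjusted p = 0.000199), and this call held under all 14 alternatives. Cldn10 was concentrated in 3 of the 12 hair follicle-like clusters, 5, 8 and 22, the last with Krt35, Msx2 and Hoxc13, genes of the hair shaft. These 3 held 24.5% and 27.6% of Grhl3-/- hair follicle-like cells and 17.9% and 14.51% of WT ones. Within clusters, both Grhl3-/- libraries were above both WT libraries in 8 of 12, including cluster 5 at 190 and 200 against 155 and 170 CPM, while in cluster 22 the genotypes overlapped at 360 and 290 against 294 and 349 CPM. In basal-like cells Cldn10 was at 4.85 and 3.58 against 2.51 and 1.199 CPM (1.23 ± 0.41, adjusted p = 0.0232), a call lost under 7 of 13 alternatives. Among these, its change was 0.474 (edgeR adjusted p = 0.439) with high doublet scores removed and 0.547 (0.38) without integration. It was 0.837 without the second WT library and 0.882 without the first Grhl3-/- library. In basal-like cluster 0, which held most of the Grhl3-/- cells, the genotypes overlapped at 4.78 and 0.850 against 2.28 and 1.27 CPM. In clusters 14 and 21 both Grhl3-/- libraries were above both WT libraries, with 1 UMI in each WT library in cluster 21. The v1 WT library had Cldn10 at 8.29 CPM in hair follicle-like and 0.589 CPM in basal-like cells.

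**Figure D4:**
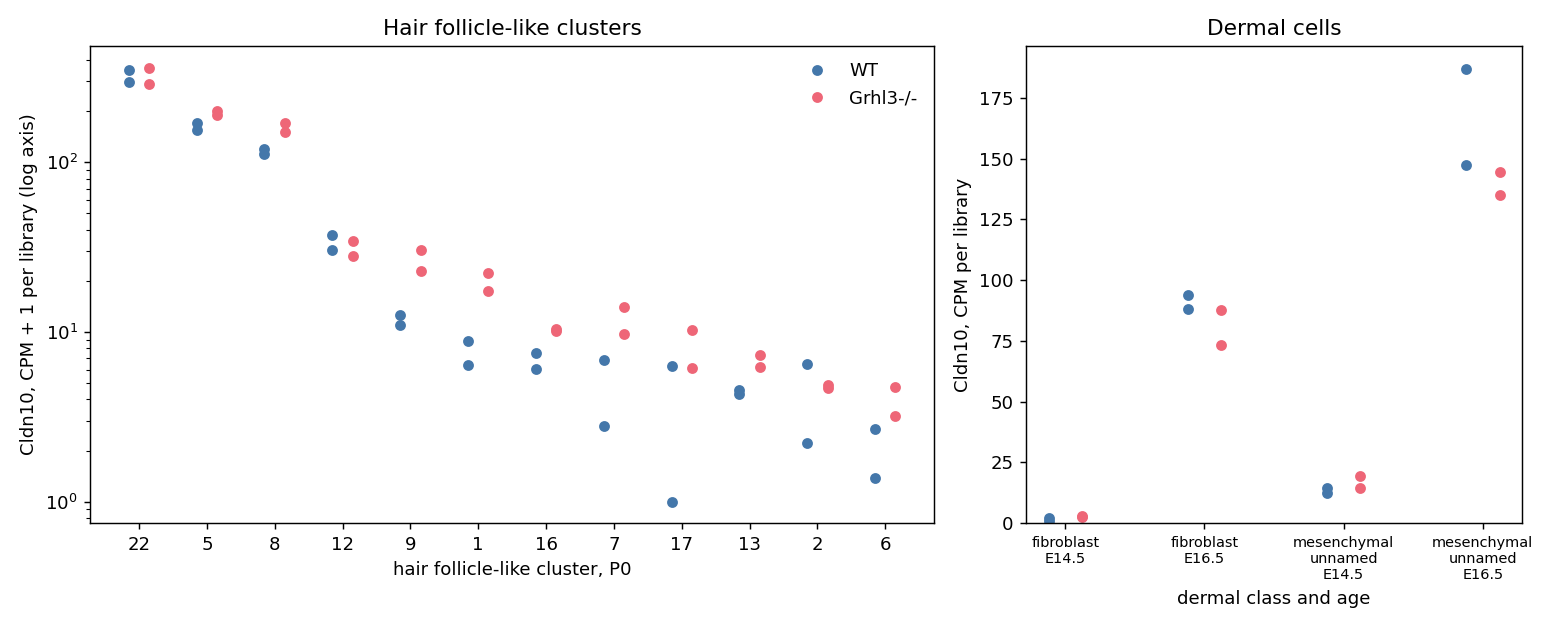
Cldn10 by library. Left, CPM plus 1 on a log axis in the 12 hair follicle-like clusters at P0, ordered by mean, WT in blue and Grhl3-/- in red. Right, CPM in fibroblast-like and unnamed mesenchymal cells at E14.5 and E16.5. Clusters 22, 5 and 8 lie above 100 CPM, and both dermal classes are higher at E16.5 than at E14.5 in either genotype.

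Cldn4 and Ocln fell in hair follicle-like cells at P0, Cldn4 from 6.91 and 7.73 to 4.04 and 3.32 CPM (-0.93 ± 0.18, adjusted p = 0.000824) and Ocln from 5.08 and 5.02 to 3.45 and 2.70 CPM (-0.65 ± 0.24, adjusted p = 0.0443). Leaving out the second WT library or either Grhl3-/- library took the Ocln call away (adjusted p = 0.111, 0.0834 and 0.344), with E16.5 cluster 13 left out it did not pass (0.0614), and without integration of the libraries its change was 0.035. The Cldn4 call was lost without integration (-0.37, adjusted p = 0.112). Within clusters, Cldn4 was lower in both Grhl3-/- libraries than in both WT libraries in 4 of 12 and higher in 1, cluster 6, at 5.19 and 4.84 against 1.12 and 1.47 CPM. In cluster 13, where it was highest, it was at 22.7 and 18.1 against 36.0 and 40.8 CPM, and this cluster held 197 of 4239 and 209 of 3553 Grhl3-/- hair follicle-like cells and 224 of 2784 and 245 of 2729 WT ones. Cldn4 in basal-like cells was at 5.09 and 5.97 CPM against 5.75 and 5.51 CPM, which overlapped. Tjp1 passed in no class at P0, with values of 42.6 and 41.0 against 43.9 and 61.7 CPM in hair follicle-like cells.

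In counts, 4 of 9 members passed at P0 in basal-like cells (2 higher and 2 lower in Grhl3-/-), against 39.6% of all genes, 2 of 7 in spinous-like cells (both lower), against 22.8%, and 7 of 8 in hair follicle-like cells (3 higher and 4 lower), against 36.9%. In the first 2 classes the share was near that of all genes. Without the second WT library 2 members passed in basal-like cells, and without the first WT or the second Grhl3-/- library 4 passed in hair follicle-like cells. DESeq2 called 2, 2 and 6 members. The median member changed by -0.06, -0.69 and -0.39 in these classes, against -0.02, -0.04 and -0.06 over all genes.

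**Figure D5:**
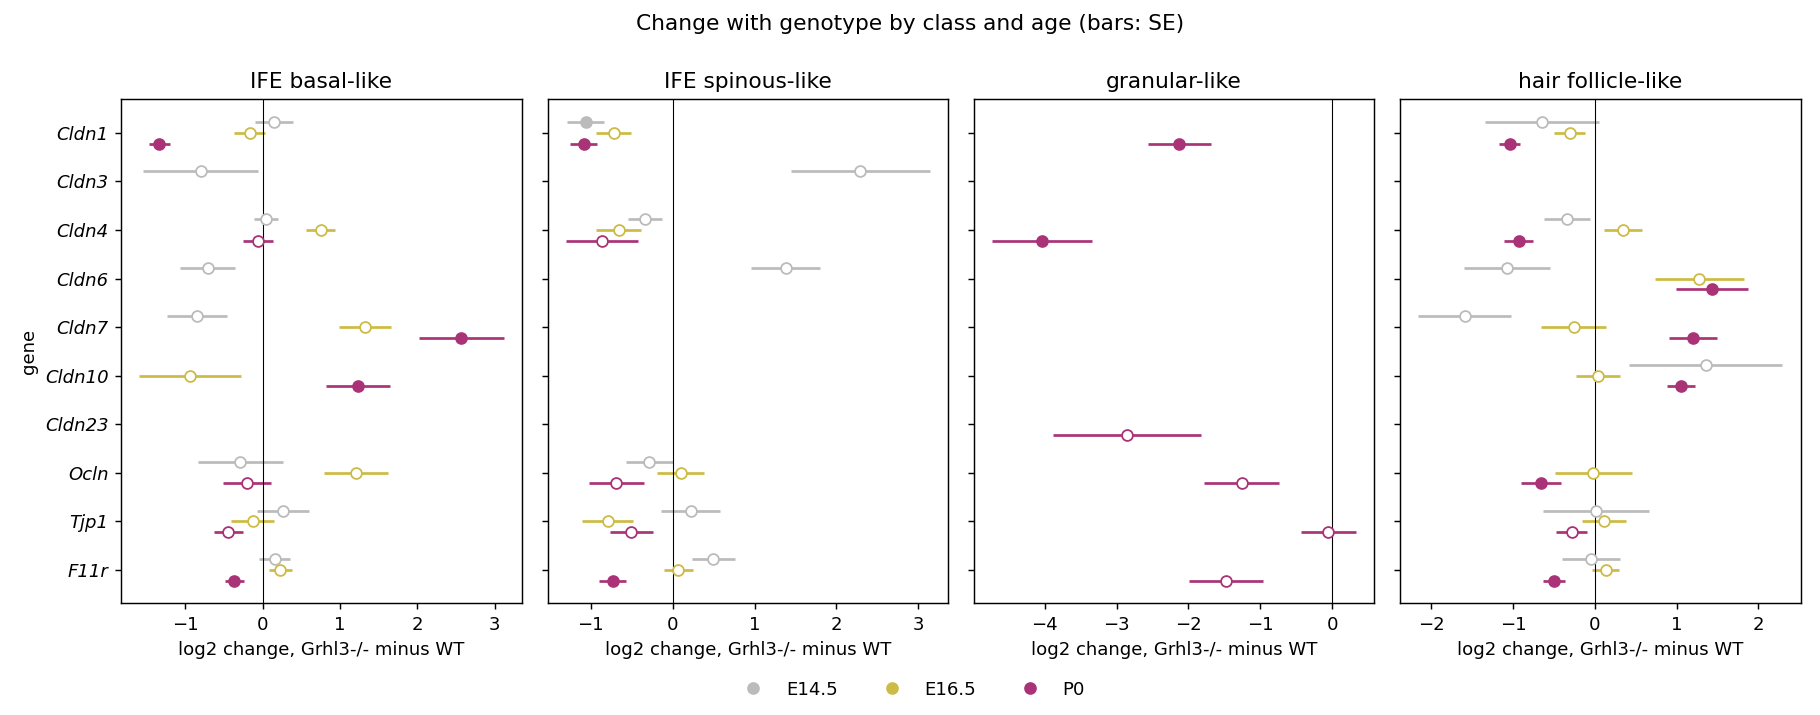
Log2 change from WT to Grhl3-/- with its standard error for each gene in 4 classes, by age. Filled points passed the adjusted test and open points did not, and genes with under 10 UMIs in a comparison are left out. Cldn1 at P0 is filled on the left in all 4 classes, and most embryonic points are open.

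Whether the genotype difference itself changed between E16.5 and P0 was tested by an interaction. In basal-like cells the change of Cldn1 was -0.17 at E16.5 and -1.34 at P0, a difference of -1.17 ± 0.24 (adjusted p = 0.00378), where 15.3% of all genes passed, and that of F11r was 0.23 and -0.37, a difference of -0.59 ± 0.19 (adjusted p = 0.0462). In hair follicle-like cells, where 11.7% passed, Cldn4 went from 0.35 to -0.93, a difference of -1.28 ± 0.29 (adjusted p = 0.00995), and Cldn10 from 0.04 to 1.05, a difference of 1.02 ± 0.32 (adjusted p = 0.047). In spinous-like cells no member passed, where 6.58% of all genes did, and without the second P0 WT library 1 did. Without the second E16.5 Grhl3-/- library the Cldn1 difference was -0.89 (adjusted p = 0.0646) and no member passed in basal-like cells. The F11r difference was lost on leaving out any of 7 of the 8 libraries (adjusted p between 0.0727 and 0.188) and held without the first P0 WT library. In hair follicle-like cells Cldn4 was lost without the second E16.5 WT library (0.0671) or the first E16.5 Grhl3-/- library (0.0666), when no member passed. Without integration of the libraries its difference was -0.17 (adjusted p = 0.741), and at resolution 0.5 it was -1.13 (adjusted p = 0.142). With E16.5 cluster 13 left out, 4 members passed, Cldn4 (-1.49, adjusted p = 0.0168) and Cldn10 (1.08, adjusted p = 0.0315) among them. The Cldn10 difference was lost on leaving out any of 6 of the 8 libraries (adjusted p between 0.0517 and 0.26) and held without the second E16.5 Grhl3-/- or the first P0 WT library. Age and preparation cannot be told apart in these differences.

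Of 50 other tight junction genes listed, 47 were in the tables. None passed by genotype at E14.5 or E16.5 with edgeR or DESeq2, and between 1 and 3 per class had an unadjusted p under 0.05 with edgeR, where at most 1.64% of all genes passed. At P0 every one that passed was lower in Grhl3-/-: 10 of 31 tested in basal-like cells, 5 of 26 in spinous-like, 3 of 14 in granular-like and 12 of 28 in hair follicle-like cells. Of all genes 39.6%, 22.8%, 6.31% and 36.9% passed in these classes, so that the share of the list was near that of all genes in all but the granular-like class. DESeq2 called 4, 3, 4 and 12 of them, in the same order. In basal-like cells Mpp5, a polarity scaffold, was at 14.9 and 15.5 CPM against 44.3 and 27.7 CPM (-1.24 ± 0.22), Cldn12 at 3.88 and 3.38 against 7.90 and 6.59 CPM (-0.95 ± 0.26), Mllt4, the actin-binding afadin, at 46.0 and 42.2 against 90.6 and 80.1 CPM (-0.95 ± 0.15) and Cldn8 at 2.30 and 2.39 against 4.55 and 3.96 CPM (-0.85 ± 0.32). Mllt4 passed in all 4 classes, while DESeq2 did not call Cldn12 or Cldn8 in basal-like cells. From E16.5 to P0 in WT, 19 of 31 genes rose and 3 fell in basal-like cells, 13 of 26 rose and 1 fell in spinous-like, and 10 of 28 rose and 2 fell in hair follicle-like cells, where 63.4%, 46.0% and 51.7% of all genes passed. Between E14.5 and E16.5 it was 3, 2 and 1 genes that passed, where 16.48%, 12.6% and 7.55% of all genes did.

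In spinous-like cells Pard6a was at 5.66 and 1.12 against 10.4 and 11.5 CPM (-1.37 ± 0.40, not called by DESeq2), followed by Ybx3 (327 and 259 against 588 and 419 CPM, -0.87 ± 0.19) and Mllt4 (41.6 and 43.6 against 70.1 and 71.7 CPM, -0.84 ± 0.17). In granular-like cells Cgn (cingulin), which links the junction to actin, had 6.95 and 3.87 against 36.8 and 23.2 CPM (-2.56 ± 0.51), Cxadr, a further junction receptor, 27.8 and 10.8 against 63.8 and 52.3 CPM (-1.73 ± 0.42), and Mllt4 39.96 and 20.9 against 89.1 and 99.1 CPM (-1.70 ± 0.35). For each of these the second Grhl3-/- library, which stood apart in this class, was the lower of the pair. In hair follicle-like cells Cldn8 had 5.03 and 4.11 against 10.7 and 10.7 CPM (-1.17 ± 0.25) and Cgnl1 20.97 and 27.5 against 52.9 and 59.5 CPM (-1.16 ± 0.18), before Amotl1 (103 and 116 against 249 and 192 CPM, -0.95 ± 0.14) and Mllt4 (67.5 and 63.2 against 143 and 115 CPM, -0.92 ± 0.14). The median of the list was -0.40, -0.23, -1.21 and -0.37 in basal-like, spinous-like, granular-like and hair follicle-like cells, against -0.02, -0.04, -0.09 and -0.06 over all genes.

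Among 6 membrane partners and proteases of claudins, Epcam and Spint2 were higher in Grhl3-/- basal-like cells at P0, Epcam at 186 and 274 against 131 and 166 CPM (0.59 ± 0.16). With 2 of 6 called in basal-like and 2 of 6 in hair follicle-like cells, against 39.6% and 36.9% of all genes, the share was near that of all genes. EPCAM binds CLDN7 and SPINT2 inhibits membrane proteases. St14 was higher (0.45 ± 0.15) and Prss8 lower (-0.72 ± 0.20) in hair follicle-like cells, both encoding membrane proteases, and none of the 6 passed in spinous-like or granular-like cells at P0 with edgeR or DESeq2 (against 22.8% and 6.31% of all genes with edgeR), although 2 and 3 had an unadjusted p under 0.05 with edgeR. Grhl1, a paralogue of Grhl3, was lower at P0 in basal-like (12.004 and 11.3 against 35.4 and 38.2 CPM, -1.65 ± 0.19), spinous-like (-1.84 ± 0.17) and hair follicle-like cells (-0.58 ± 0.13). The v1 WT library had Grhl1 at 10.6, 54.1 and 22.4 CPM in these classes, in the same order, and at 31.8 CPM over all epithelial cells, where Grhl3-/- libraries had 26.9 and 33.9 CPM and the other WT libraries 63.9 and 71.9 CPM.

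The genes whose levels followed each member most closely over 36 class and age points, both genotypes averaged, are given as a description, since the points share libraries and depth. Cldn1 followed Ppl (Pearson r = 0.953), Ppp1r13l and Aim1, and Cldn23 followed Il1f8 (r = 0.993), Slc6a19 and Krt23. Cldn3 followed Muc1 (0.943), Hcn2 and Lhfpl5, and Cldn4 followed Aldh5a1 (0.90), Gjb6 and Pard6b. Cldn6 and Cldn7 shared Fam129c, Capsl and Syt7 as their nearest genes (r from 0.768 to 0.889). Ocln followed Muc15 (0.93), Rhbg and Bspry, and F11r followed Efna1 (0.873), Prickle3 and Ets2. No gene followed Cldn10 above 0.665 (Dip2c, Paqr6, Pi4k2b) or Tjp1 above 0.747 (Shroom4, Tspan18, Utrn).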

How the data were processed

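Single-cell 3′ libraries from mouse skin were analysed from the UMI count matrices as the authors deposited them, 13 in all. Per the labels, Cell Ranger 1.3.1, mm10 and Seurat were used, and a later Cell Ranger version is named in the study's methods. No deposited count was normalised. Cells with 600 to 4800 genes (embryonic) or 900 to 7700 genes (P0) and at most 10% mitochondrial UMIs were kept, as in the study's filters. Doublets were removed only as an alternative, as the 5% of cells with the highest scores in each library.

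Each age was clustered on 3000 variable genes and 30 principal components, with 20 neighbours and resolution 1 (Seurat 5.3.0, R 4.3.3), the libraries integrated and all claudin and tight junction genes left out. In the clusters of all cells the score of a marker list was the mean log2 fold of all its markers. Merkel and non-epithelial classes were named there at a score of at least 1, with no margin. Immune classes also needed at least 3 listed markers among the 10 leading genes. Clusters that reached no name and scored highest for fibroblasts or dermal condensate were the unnamed mesenchymal cells. Epithelial cells, picked by the keratin and Vim levels of their clusters, were clustered again. There the score was the mean log2 fold of the 5 markers of a list that were highest in the cluster at hand. An epithelial cluster took a class name from these fixed lists, with a score of at least 0.75 and a margin of 0.25 (log2) over the next class. It stayed unnamed where 2 or more listed markers of another class outnumbered its own among its 10 leading genes, where 3 or more there were listed for a non-epithelial class, where its UMIs were low with none of its own there or, for granular, periderm, sebaceous and Merkel cells, where fewer than 2 of its own were there, which left P0 cluster 23 and E16.5 clusters 5 and 14 unnamed above both limits. These limits were set after the scores were seen, and names may differ from the study's. At resolution 0.5 no P0 class was named spinous-like.

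UMIs were summed per library and class with at least 20 cells. edgeR 4.0.16 (quasi-likelihood test, TMM, filterByExpr with a minimum count of 10) was fitted once per class over the 12 libraries in 6 groups (6 libraries in 3 groups for granular-like cells), with Benjamini-Hochberg adjustment over all genes tested and a threshold of 0.05. Tests (two-sided) compared genotypes at each age, WT ages, and the genotype change at P0 with that at E16.5. The fit was tested on simulated data. The SE beside a log2 change was the size of the change over the square root of the test's F statistic. DESeq2 1.42.0 and the other settings of the closing section were alternatives. p-values rest on the spread between 2 animals a group, pooled over the groups of a fit and drawn toward the spread of other genes. The residual degrees of freedom were 6 (3 for granular-like cells), with 8.60 to 11.8 added from the other genes.

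The 10 members entered every comparison where their counts allowed, and not every result is printed. Beside them were named up to 4 further tight junction genes a direction by size of change and the 3 genes most correlated with each member over class and age points (log2 of CPM plus 10). Some listed genes are not reported here. The members and lists were chosen with earlier results of these data known. Intervals cover counting error only. A library holding fewer than 20 cells of a class was not tested there.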

Additional observations from a re-analysis of the deposited data

Results flagged for a closer look

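The genotype change of 4 members differed between P0 and E16.5 by the interaction test of edgeR, adjusted over all genes. In basal-like cells the difference of the changes (log2, P0 minus E16.5) was -1.168 for Cldn1 (adjusted p = 0.00378) and -0.594 for F11r (adjusted p = 0.0462). In hair follicle-like cells it was -1.28 for Cldn4 (adjusted p = 0.00995) and 1.017 for Cldn10 (adjusted p = 0.047). The call held under 16 of 17 alternatives for Cldn1, 4 of 17 for F11r, 14 of 18 for Cldn4 and 8 of 18 for Cldn10. E16.5 libraries were whole skin and P0 libraries epidermis in both genotypes.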

How the results depend on the processing

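Of the 51 calls of members, the interaction calls included, the following number held: 50 with RLE size factors, 49 with high doublet scores removed, 48 with no filter on low counts, 45 with at most 5% mitochondrial UMIs, 42 with the replicate block and 41 with DESeq2, as well as 44 of 49 with the libraries of the ages compared alone, 36 of 44 without integration, 37 of 44 at resolution 0.5 and 17 of 21 in hair follicle-like cells with E16.5 cluster 13 left out. This last alternative and all those for the interaction were added after the data had been seen. The direction turned in 3 cases, namely Ocln by genotype at P0 in hair follicle-like cells without integration (0.035) and, in WT hair follicle-like cells from E16.5 to P0 at resolution 0.5, Cldn4 (0.138) and Cldn10 (-0.079). The cause was not tested.

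The number of members called by genotype moved as follows. In basal-like cells at E16.5 it went from 0 to 1 with no filter, with the ages alone, without integration and at resolution 0.5, and at P0 from 4 to 2 with DESeq2 and at 5% mitochondrial UMIs. In spinous-like cells at E14.5 it went from 1 to 2 with no filter or the ages alone and to 4 at resolution 0.5, and in granular-like cells at P0 from 2 to 4 with no filter and to 1 at resolution 0.5. For WT spinous-like cells between E14.5 and E16.5 it went from 3 to 5 with the ages alone and at resolution 0.5. The interaction count went in basal-like cells from 2 to 1 with DESeq2, the ages alone and 5% mitochondrial UMIs, in spinous-like cells from 0 to 1 at 5%, and in hair follicle-like cells from 2 to 4 with no filter or with E16.5 cluster 13 left out and to 1 at 5%. At P0 spinous-like cells gave no value at resolution 0.5 and granular-like cells none without integration, since no such class was named.

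Libraries of one number did not deviate together (correlations from -0.05 to 0.04 within an age, 2 pairs each), so the labels' numbers were not taken as pairs. With the replicate block, the count of members went from 6 to 3 in WT basal-like cells between E14.5 and E16.5, from 2 to 4 in P0 granular-like cells and from 2 to 1 in the basal-like interaction, and that of all genes from 1971 to 933 and from 450 to 949 in the first pair of these. Over all genes the block also gave 624 against 1250 and 393 against 852 for WT spinous-like and hair follicle-like cells between E14.5 and E16.5, and 3038 against 4559 for spinous-like cells from E16.5 to P0.

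Leaving out 1 library gave 2 to 5 members at P0 in basal-like cells, 2 to 2 in spinous-like, 0 to 3 in granular-like and 4 to 6 in hair follicle-like cells, 0 to 0 at E14.5 and, at E16.5, 0 to 1 in spinous-like cells. For WT ages it gave 3 to 6 between E14.5 and E16.5 and 5 to 6 from E16.5 to P0 in basal-like cells, 3 to 3 and 3 to 4 in spinous-like, and 2 to 5 and 5 to 7 in hair follicle-like cells. For the interaction it gave 0 to 3 in basal-like, 0 to 1 in spinous-like and 0 to 2 in hair follicle-like cells.

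Over all genes, DESeq2 called 3138 against 4736 by edgeR in P0 basal-like and 1330 against 2258 in P0 spinous-like cells, 385 against 652 in the spinous-like interaction, 0 against 1 at E14.5 in basal-like and 2 against 0 in hair follicle-like cells. With no filter 243 genes were called against 70 in E16.5 basal-like, 288 against 146 in E14.5 spinous-like, 407 against 163 in E16.5 spinous-like, 1106 against 450 in granular-like and 141 against 29 in E16.5 hair follicle-like cells. With the ages alone the counts were 189 against 70, 333 against 146 and 93 against 29 in the same basal-like, E14.5 spinous-like and E16.5 hair follicle-like comparisons, and 1418 against 2258 in P0 spinous-like cells. At resolution 0.5, 752 genes passed in E14.5 spinous-like, 382 in E16.5 spinous-like and 14 in E16.5 hair follicle-like cells, and without integration 25 and 47 in the last pair, 177 in the spinous-like interaction and 1626 against 852 in WT hair follicle-like cells between E14.5 and E16.5. Without the second Grhl3-/- library 64 genes passed in granular-like and 2396 against 4165 in P0 hair follicle-like cells.

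Of the mean levels in WT keratinocyte classes, 33 of 100 moved by over 1 SD without integration and 25 of 100 at resolution 0.5. In granular-like Grhl3-/- cells, 47 and 155 in number, a member with few UMIs could not be measured closely.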

Other observations

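Small P0 classes that were not tested are given as values. In sebaceous-like cells, the lipid-making cells of the gland (39 and 27 Grhl3-/- and 133 and 83 WT cells), Cldn4 was at 7.04 and 4.14 CPM in Grhl3-/- and 26.2 and 23.5 CPM in WT, Ocln at 4.23 and 4.14 against 13.1 and 23.5 CPM, and F11r at 66.2 and 53.9 against 97.0 and 101 CPM. In melanocyte-like cells Cldn10 was at 57.2 and 38.2 against 81.6 and 113 CPM, and at 12.3 CPM in the v1 WT library.

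Of the unnamed clusters, one at P0 led by Krt6a, Krt6b and Sprr genes held 2.06% and 2.98% of epithelial cells in Grhl3-/- and 1.23% and 0.967% in WT libraries, with Cldn1 at 90.2, Cldn4 at 28.7 and F11r at 103 CPM over both genotypes. One at E14.5 led by Krt77 and Lor held 3.10% and 3.57% in Grhl3-/- and 6.38% and 6.60% in WT libraries, with Cldn4 at 195, Ocln at 37.2 and F11r at 71.4 CPM over both genotypes. In it Cldn1 was at 32.3 and 45.9 CPM in Grhl3-/- and 92.3 and 93.4 CPM in WT libraries (17 and 53 against 22 and 34 cells), and Cldn23 at 4.04 and 3.62 against 14.4 and 10.6 CPM (1 and 3 against 5 and 6 UMIs). The genotypes did not overlap for either gene and were not tested in this cluster.

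Ocln in endothelial-like cells at E14.5 was at 12.5 CPM in one WT library and 0.747 CPM in the other.

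The v1 WT library had higher F11r in macrophage or Langerhans-like cells (177 CPM, against 86.5 and 86.8 CPM) and lower Tjp1 in hair follicle-like cells (9.45 CPM, against 43.9 and 61.7 CPM) than the other P0 WT libraries. It was clustered alone, without integration with them.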
